A study of Mus musculus with 6 samples.

Results

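The transcripts described here are those of the mouse mitochondrial genome, a small circular DNA (chromosome MT) that is separate from the nuclear chromosomes. All genes listed on chromosome MT were taken, which gave 35 of the 49315 genes listed. They are 13 protein-coding genes and 22 tRNA genes. GENCODE M21 annotates 37 genes there, and all 35 had the same position in it. The other 2 are the rRNA genes mt-Rnr1 and mt-Rnr2, which were not analysed here.

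The RNA came from liver cells pulled out with magnetic beads against F4/80, a macrophage surface protein, which takes in the Kupffer cells, the macrophages that live in the liver. The mice were on a C57BL/6N background and had eaten a diet with 60% of its energy as fat for 16 weeks. The Lpcat3KOMac group (n = 3) was Lpcat3 fl/fl with 1 LysM Cre allele, and the WT group (n = 3) was Lpcat3 fl/fl littermates without Cre, so both genotypes carried the floxed Lpcat3 alleles. Cre was driven from the LysM (Lyz2) locus, which is active in myeloid cells and, in this model, leaves part of the Lpcat3 mRNA in place. Lpcat3 encodes an enzyme that puts polyunsaturated fatty acids into phospholipids. One library was made per mouse, and the labels do not say that mice with the same number were paired.

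Total counts per library lay between 44954224 and 71392812. Levels are CPM, that is counts scaled to library size, here with TMM factors between 0.910 and 1.05, and are given in the order of mice 1 to 3. WT mice had 85.0, 66.2 and 61.2 CPM of Lpcat3, and Lpcat3KOMac mice had 19.5, 33.3 and 19.4 CPM, below every WT mouse. The summed level of 6 Kupffer cell markers was between 24938 and 34015 CPM in WT and between 18864 and 27224 CPM in Lpcat3KOMac mice. All 6 had negative log2 fold changes (median -0.25), and Clec4f was lower in every Lpcat3KOMac mouse (unadjusted p = 0.0423 from edgeR). Of all genes tested, 5.2% were lower in every Lpcat3KOMac mouse. At an unadjusted p under 0.05 from edgeR, 1.57% were lower and 1.07% higher. Positive log2 fold changes were found for 4 of 5 sinusoidal endothelial markers (median 0.49, with Kdr at 0.79, unadjusted p = 0.0287 from edgeR). They were also positive for 4 of 4 stellate cell markers (median 0.32). Of the 6 hepatocyte transcripts 5 were negative (median -0.30), with standard errors between 1.09 and 1.26. In all, 0 markers passed the adjusted test. The sum of 6 hepatocyte transcripts was uneven, at 18760, 1685 and 1680 CPM in WT and at 4361, 12324 and 4269 CPM in Lpcat3KOMac mice. Hepatocytes are rich in mitochondria, and the part of these transcripts in the mitochondrial counts was not tested beyond the covariate fit given with the 7 genes. The sum of 3 neutrophil markers was between 1.96 and 2.95 CPM in WT and between 3.93 and 5.29 CPM in Lpcat3KOMac mice. Their counts were low, between 13 and 133 per library. Of the 3, only S100a8 was higher in every Lpcat3KOMac mouse, beside 2.29% of all genes. The part of these shifts in the results was not tested. In such bulk samples, fewer cells of a type and less RNA per cell cannot be told apart.

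The mitochondrial genome is copied and transcribed inside the organelle by proteins that are encoded in the nucleus. Transcription is the work of the RNA polymerase Polrmt and of factors, Tfam among them. Each strand is read as a long precursor, from which the tRNAs are cut out like punctuation marks, and this frees the rRNAs and mRNAs between them. The 13 proteins all belong to the respiratory chain, namely the mt-Nd subunits of complex I, mt-Cytb of complex III, the mt-Co subunits of complex IV, and mt-Atp6 and mt-Atp8 of the ATP synthase. Every other protein of these complexes is made from nuclear genes. Mature tRNAs have no poly(A) tail, whereas most of the mitochondrial mRNAs have a short one, and the libraries here were prepared from poly(A)-selected RNA.

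The protein-coding genes with almost no counts were those that lie wholly in a block that has close copies on a nuclear chromosome, and the 5 tRNA genes with the fewest counts lie there too. On chromosome 1 of GRCm38, at 24611535 to 24616197 on the minus strand, 7 annotated pseudogenes match genes between mitochondrial positions 6390 and 11042 (4653 bases), in the same order. Their 4140 aligned bases hold 2 mismatches to the mitochondrial genes, an identity of 99.95%. The block, taken here as everything between the first and the last match, starts inside mt-Co1, of which it holds 483 of 1545 bases, and ends inside mt-Nd4, of which it holds 876 of 1378 bases. Between them lie 6 protein-coding genes and 5 tRNA genes. The tRNA genes and mt-Atp8 have no annotated copy of their own there, so for them a copy is inferred only from the spacing of the pseudogenes, which is that of the mitochondrial genes to within 1 base.

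A few stretches show how alike the copies are, since a short read from most of the aligned bases would match both places equally well. They were read from the GENCODE M21 transcripts (GRCm38), 5′ to 3′, and capitals mark the differing base. The first pair is bases 1063 to 1122 of mt-Co1 (MT:6390-6449, plus strand) and the same bases of its copy Gm29216 (chr1:24616129-24616188, minus strand), which differ by A1066T, counted from 1 at the 5′ end of mt-Co1 with its base first.
mt-Co1: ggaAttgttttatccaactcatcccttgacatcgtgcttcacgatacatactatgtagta
Gm29216: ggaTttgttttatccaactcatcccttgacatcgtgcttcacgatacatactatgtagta
The second pair is the first 60 bases of mt-Nd3 (MT:9459-9518, plus strand) and of its copy Gm28438 (chr1:24613060-24613119, minus strand), which differ by T3C, counted from 1 at the 5′ end of mt-Nd3.
mt-Nd3: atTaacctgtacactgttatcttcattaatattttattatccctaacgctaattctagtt
Gm28438: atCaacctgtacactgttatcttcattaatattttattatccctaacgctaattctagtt
The last is mt-Nd4l (MT:9877-10170, plus strand), whose 294 aligned bases are the same as those of Gm10222 (chr1:24612407-24612700, minus strand), so that no base is in capitals.
mt-Nd4l: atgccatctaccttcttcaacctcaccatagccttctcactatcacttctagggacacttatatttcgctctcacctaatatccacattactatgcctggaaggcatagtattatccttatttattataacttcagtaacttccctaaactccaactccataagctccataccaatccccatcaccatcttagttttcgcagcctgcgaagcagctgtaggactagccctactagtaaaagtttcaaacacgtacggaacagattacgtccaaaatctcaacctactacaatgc

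The 6 protein-coding genes that lie wholly in the copied block, mt-Co2, mt-Atp8, mt-Atp6, mt-Co3, mt-Nd3 and mt-Nd4l, had between 8 and 229 counts per library. The 5 that lie wholly outside it had between 29746 and 259673 counts, and mt-Co1 and mt-Nd4, which are partly outside, between 66634 and 609765. In every library, each of the 6 had fewer counts than any of the other 7. The highest of the 6 was mt-Atp6, with 210, 136 and 114 counts in WT and 229, 150 and 168 in Lpcat3KOMac mice. The lowest was mt-Nd3, with 30, 8 and 17 counts in WT and 13, 11 and 28 in Lpcat3KOMac mice.

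The tRNA genes of the block had even fewer counts. The 5 in the block, mt-Ts1, mt-Td, mt-Tk, mt-Tg and mt-Tr, had at most 1 count in any library, and 3 of them had 0 in all 6. The 17 tRNA genes outside had between 5 and 2492 counts. Outside the block mt-Tf, mt-Ts2 and mt-Tt had few counts too, with sums of 53, 65 and 67 over the 6 libraries, below the 107 of mt-Nd3. These tRNA genes are shorter than mt-Nd3, however. Per length, their WT means lay above that of mt-Nd3 (0.951 CPM per kb) and below that of mt-Atp6 (4.13 CPM per kb). Since mature tRNAs have no poly(A) tail, this comparison with mRNAs cannot tell whether low counts are particular to the block. The copies on chromosome 1 had few counts as well: Gm28438, the copy of mt-Nd3, had between 433 and 726, and the other 6 copies between 41 and 194. Counts were thus low at both places. How reads that match several places were counted is not given in the sources used here, and its part in these low counts was not tested. Because that counting rule is not known, the levels of the 6 protein-coding and 5 tRNA genes were not read as levels of their RNA. For the same reason, mt-Co1 and mt-Nd4 may be undercounted over the part that lies in the block. Copies elsewhere were less alike, such as Gm13340, which matched all 1545 bases of mt-Co1 at 97.6%, and Gm13339, which matched 510 bases of mt-Nd2 at 96.7%.

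**Figure D1:**
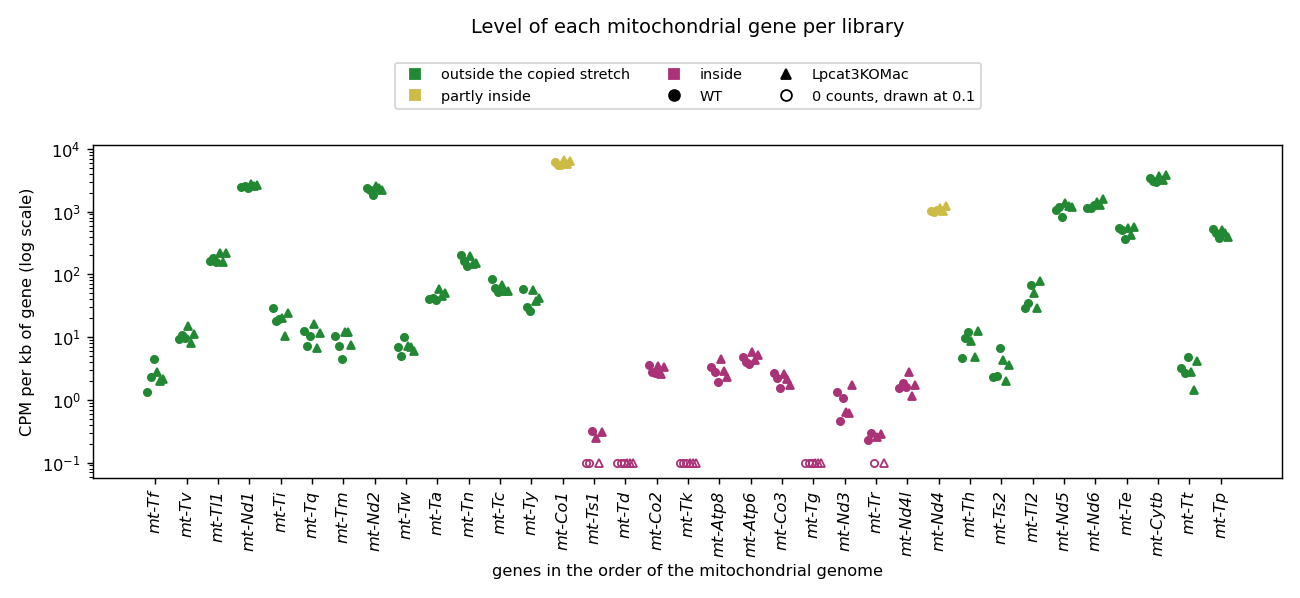
Level of each of the 35 genes in CPM per kb of gene (log axis), in genome order, with 1 point per library (circles WT, triangles Lpcat3KOMac); open symbols at 0.1 stand for 0 counts. The 11 genes wholly inside the block that is copied on chromosome 1 lie from 0 to below 10 CPM per kb. They stand between mt-Co1 and mt-Nd4, which are partly inside it. Some tRNA genes outside it, such as mt-Tf, mt-Ts2 and mt-Tt, were below 10 CPM per kb in every library too.

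The 7 protein-coding genes with many counts were among the most abundant of the 49315 genes by mean CPM. mt-Co1, the catalytic subunit of complex IV, ranked 4, mt-Cytb of complex III ranked 18, and the complex I genes mt-Nd1, mt-Nd2, mt-Nd5, mt-Nd4 and mt-Nd6 ranked 30, 33, 36, 58 and 157. Because long genes gather more counts, their levels were compared per length. In WT cells mt-Co1 was at 5750 ± 285 CPM per kb (SD, n = 3), mt-Cytb at 3189 ± 271, mt-Nd1 at 2451 ± 113 and mt-Nd2 at 2131 ± 292. mt-Nd6, mt-Nd5 and mt-Nd4 followed at 1178 ± 66.9, 1034 ± 183 and 1017 ± 40.7 CPM per kb.

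Each of the first 4 genes was above the next one in 6 of 6 libraries, and mt-Nd2 was above mt-Nd6 in 6 of 6. The last 3 were not clearly ordered, since mt-Nd6 was above mt-Nd5 in 5 and mt-Nd5 above mt-Nd4 in 4 of 6. Counting only the bases outside the copied block (1062 for mt-Co1 and 502 for mt-Nd4) put mt-Co1 at 8365 ± 414 and mt-Nd4 at 2791 ± 112 CPM per kb in WT cells (SD, n = 3). mt-Nd4 then stood above mt-Nd1 and below mt-Cytb in 6 of 6 libraries. The place of mt-Nd4 in the order thus depends on the length that is counted.

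Among the counts on these 7 genes, mt-Co1 took between 40.4 and 43.4% per library, mt-Cytb between 16.8 and 18.0%, mt-Nd1 between 10.6 and 11.6%, and mt-Nd2 between 9.57 and 11.2%. mt-Nd5 took between 7.71 and 10.3%, mt-Nd4 between 6.32 and 7.39%, and mt-Nd6 between 2.64 and 3.41%. The share of each gene overlapped between the genotypes. The widest relative range of the 7 was that of mt-Nd5, with a highest share 1.34 times its lowest.

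mt-Nd6 (MT:13552-14070) is the only protein-coding gene read from the light strand, here the minus strand. Its level per base was between 0.967 and 1.504 times that of its neighbor mt-Nd5, which lies on the plus strand and overlaps it by 14 bases. The ratio was highest in WT mouse 3 (1.504) and Lpcat3KOMac mouse 3 (1.33), and between 0.967 and 1.05 in the other 4 libraries. The kit does not mark strand and the strand setting is not given in the sources used here, so counts on mt-Nd6 cannot be told apart from those on RNA of the opposite strand.

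Whether the loss of Lpcat3 goes along with a different share of mitochondrial RNA was asked first over all 35 genes. Their share of all counts was 2.03, 2.07 and 2.02% in WT mice, against 2.58, 2.22 and 2.48% in Lpcat3KOMac mice. Every Lpcat3KOMac mouse was above every WT mouse, and the WT mice lay close together. The means were 2.04 ± 0.0295% in WT and 2.43 ± 0.182% in Lpcat3KOMac cells (SD, n = 3 each), a share 19.0% higher. The two-sided exact permutation test gave p = 0.1 (0.15 adjusted over 3 classes), the smallest p that 3 mice against 3 allow, so the difference could not pass 0.05. The 95% exact (Clopper-Pearson) binomial intervals reached at most 0.00451 percentage points to either side, for counting error only.

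The separation depended on how the libraries were scaled. After TMM scaling, which corrects for a few abundant genes that take up reads, the share was 2.23, 2.12 and 1.98% in WT and 2.46, 2.17 and 2.40% in Lpcat3KOMac mice. WT mouse 1 was then above Lpcat3KOMac mouse 2, the 2 libraries with the most hepatocyte transcripts. The means were 2.11 ± 0.124% and 2.35 ± 0.153% (SD, n = 3 each), a level 11.2% higher in Lpcat3KOMac cells (two-sided exact permutation test, p = 0.2). Protein-coding genes made up nearly all of the share, at 2.03 ± 0.0291% in WT and 2.41 ± 0.181% in Lpcat3KOMac cells (SD, n = 3 each; exact permutation p = 0.1, adjusted 0.15). The tRNA genes held 0.0102 ± 0.000935% and 0.0115 ± 0.00152% of the counts (SD, n = 3 each; exact permutation p = 0.3, adjusted 0.3), and the genotypes overlapped.

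**Figure D2:**
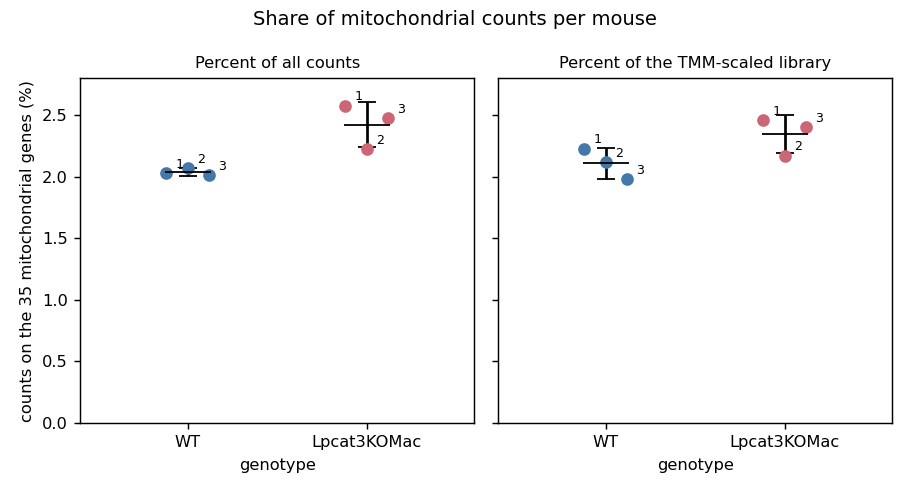
Percent of counts on the 35 mitochondrial genes per mouse (numbered points), as a share of all counts (left) and of the TMM-scaled library (right), with the mean and SD of each genotype. Lpcat3KOMac mice lay above all WT mice on the left, between 2.22 and 2.58%, whereas on the right WT mouse 1 (2.23%) was above Lpcat3KOMac mouse 2 (2.17%).

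Genes were then compared singly with edgeR's quasi-likelihood test over the 16134 genes with enough counts, after TMM scaling and with Benjamini-Hochberg adjustment. Of the 35 mitochondrial genes, 29 were tested and 0 had an adjusted p under 0.05, which was also so for all genes (0% called). Lpcat3 itself was not called either (log2 fold change -1.56, unadjusted p = 0.00119, adjusted p = 0.9999 from edgeR). The test thus missed the deleted gene, and 0 calls do not show that the mitochondrial genes were unchanged. DESeq2 called 15 of 13510 genes (0.111%) and no mitochondrial gene, although it gave 5 of them no adjusted p. At an unadjusted p under 0.05, edgeR had 1 mitochondrial gene higher in Lpcat3KOMac cells and 0 lower, beside 1.07% of all genes higher and 1.57% lower. Of the 29 genes, 3 (mt-Nd1, mt-Nd6 and the tRNA gene mt-Ta) were higher in every Lpcat3KOMac mouse than in every WT mouse and 0 were lower in every one, against 2.29% and 5.2% of all genes. The log2 fold change was positive for 21 of the 29 and negative for 8, with a median of 0.15, while the median of all genes tested was -0.04. The 21 included the 6 protein-coding genes of the copied block, which were not read as levels of their RNA.

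The 7 well-counted protein-coding genes had log2 fold changes between 0.12 and 0.28, all positive, with a median of 0.16, but none passed the test. The gene with the smallest unadjusted p was mt-Nd6, a complex I subunit, whose counts cannot be told apart from those on RNA of the opposite strand. Its level was 584, 599 and 651 CPM in WT mice and 729, 667 and 815 CPM in Lpcat3KOMac mice, which did not overlap. The log2 fold change was 0.27 (standard error 0.11, unadjusted p = 0.0447, adjusted p = 0.9999 from edgeR), and it lay between 0.22 and 0.35 when single mice were left out. In those fits its unadjusted p from edgeR was under 0.05 only without Lpcat3KOMac mouse 2. With the replicate number as an added term it was not under 0.05. mt-Nd1 (MT:2751-3707, plus strand), another complex I subunit, was at 2344, 2454 and 2238 CPM in WT and at 2628, 2479 and 2547 CPM in Lpcat3KOMac mice. These did not overlap either, although Lpcat3KOMac mouse 2 was close to WT mouse 2, and the log2 fold change was 0.12 (standard error 0.08).

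For the other 5 genes the genotypes overlapped. mt-Nd5 (MT:11742-13565, plus strand), of complex I, had the largest log2 fold change of the 7, 0.28 (standard error 0.15). Its level was 1964, 2175 and 1520 CPM in WT and 2492, 2227 and 2153 CPM in Lpcat3KOMac mice, with WT mouse 3 well below the rest. mt-Nd2 (MT:3914-4951, plus strand), also of complex I, was at 2484, 2265 and 1886 CPM in WT and at 2671, 2430 and 2305 CPM in Lpcat3KOMac mice (log2 fold change 0.16, standard error 0.13). Here too WT mouse 3 was lowest, and WT mouse 1 was above Lpcat3KOMac mice 2 and 3.

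mt-Co1 (MT:5328-6872, plus strand), the most abundant of them, was at 9385, 8704 and 8561 CPM in WT and at 10189, 8736 and 10075 CPM in Lpcat3KOMac mice (log2 fold change 0.12, standard error 0.10). Lpcat3KOMac mouse 2 lay among the WT mice, while the other two were above them. mt-Nd4 (MT:10167-11544, plus strand), of complex I, was at 1401, 1345 and 1457 CPM in WT and at 1586, 1386 and 1706 CPM in Lpcat3KOMac mice (log2 fold change 0.15, standard error 0.11). mt-Cytb (MT:14145-15288, plus strand), the mitochondrial subunit of complex III, was at 3997, 3547 and 3401 CPM in WT and at 4195, 3700 and 4308 CPM in Lpcat3KOMac mice (log2 fold change 0.16, standard error 0.11). In both, Lpcat3KOMac mouse 2 again lay within the WT range.

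All 7 log2 fold changes were positive in each of the 17 fits made. The fits reuse the same mice, and the 7 genes were counted in the same libraries, so these signs are not independent of each other. With the mean log2 level of Alb, Apoa1, Apoc3, Ttr and Fgb as a covariate, the 7 lay between 0.12 and 0.30, with a median of 0.14. The hepatocyte transcript Cps1 was left out of this covariate. Scaling by total counts alone raised the median of all 13 protein-coding genes, and that of the 7, to 0.26. It raised the median of all genes from -0.04 to 0.06. Without Lpcat3KOMac mouse 2 the median was 0.25 for the 13 and 0.24 for the 7. Without WT mouse 3 it was 0.11 for both.

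**Figure D3:**
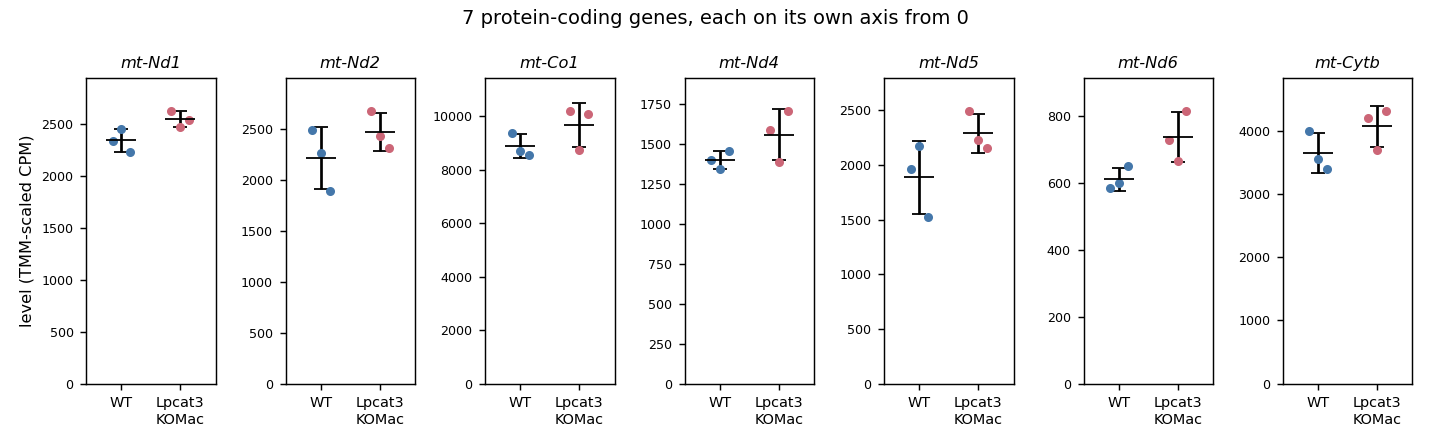
TMM-scaled CPM of the 7 well-counted protein-coding genes, with 1 point per mouse and the mean and SD of each genotype, each gene on a linear axis from 0. The Lpcat3KOMac mean was above the WT mean in all 7, and the points overlapped in all but mt-Nd1 and mt-Nd6.

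The 6 protein-coding genes of the copied block had log2 fold changes between 0.03 and 0.30 with a median of 0.11, on levels between 0.160 and 3.94 CPM. Their standard errors, between 0.22 and 0.60, were so wide that neither a rise nor a fall could be told. The log2 fold change was 0.30 for mt-Atp6 of the ATP synthase (standard error 0.22), while mt-Atp8, also of the ATP synthase, had 0.26 (0.38), and mt-Nd4l, of complex I, had 0.17 (0.38). mt-Co2 and mt-Co3, of complex IV, had 0.04 (0.25) and 0.03 (0.30), and mt-Nd3, of complex I, 0.04 (0.60). The direction of mt-Nd3 turned under limma-voom, and those of mt-Nd3 and mt-Co3 with the hepatocyte covariate. The 7 copies on chromosome 1 had log2 fold changes between -0.09 and 0.16.

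The tRNA genes had few counts, and these were concentrated on a few genes. A few of the 22 tRNA genes held 82.9% of all tRNA counts: mt-Te (tRNA for glutamate, 10981 counts over the 6 libraries, 31.4%), mt-Tp (proline, 9854 counts, 28.2%), mt-Tl1 (leucine, 4361 counts, 12.5%) and mt-Tn (asparagine, 3805 counts, 10.9%). Their sequences are shown because they carry most of the tRNA counts. They come from GENCODE M21 (GRCm38), are written 5′ to 3′ in DNA letters, and have the anticodon in capitals. mt-Te lies at MT:14071-14139 and mt-Tp at MT:15356-15422, both on the minus strand, mt-Tl1 at MT:2676-2750 on the plus strand, and mt-Tn at MT:5089-5159 on the minus strand.
mt-Te: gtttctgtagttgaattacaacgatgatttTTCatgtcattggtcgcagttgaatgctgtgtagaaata
mt-Tp: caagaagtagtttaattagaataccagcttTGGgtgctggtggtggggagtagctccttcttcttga
mt-Tl1: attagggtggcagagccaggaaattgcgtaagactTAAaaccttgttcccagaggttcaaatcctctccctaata
mt-Tn: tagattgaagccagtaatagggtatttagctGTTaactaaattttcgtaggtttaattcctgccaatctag

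The 8 tRNA genes of the minus strand, mt-Te, mt-Tp and mt-Tn among them, held 28148 counts (80.5%), and the 14 of the plus strand 6829 (19.5%). On the minus strand only mt-Nd6 is a protein-coding gene, and mt-Te lies next to it. Per base, mt-Te was at between 0.292 and 0.494 times the level of mt-Nd6. Since strand was not marked, these counts may come from RNA of either strand. Since the mature tRNA has no poly(A) tail, they cannot be told apart from counts on longer unprocessed RNA either. The summed level of 6 nuclear-encoded RNAs without a poly(A) tail, 7SK among them, was 3.36, 6.33 and 10.04 CPM in WT and 6.25, 4.94 and 4.38 CPM in Lpcat3KOMac mice, which overlapped. In WT cells the 17 tRNA genes outside the copied block were between 2.74 and 480 CPM per kb, below each of the 7 protein-coding genes.

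mt-Te was at 38.4, 35.8 and 25.3 CPM in WT and at 37.5, 29.4 and 39.1 CPM in Lpcat3KOMac mice, which overlapped (log2 fold change 0.09, standard error 0.20). mt-Tp was at 36.0, 31.0 and 25.5 CPM in WT and at 34.2, 30.5 and 26.2 CPM in Lpcat3KOMac mice (log2 fold change -0.03, standard error 0.17). mt-Tl1 was at 12.4, 13.4 and 11.9 CPM in WT and at 16.3, 11.7 and 16.7 CPM in Lpcat3KOMac mice, where mouse 2 was below all WT mice (log2 fold change 0.24, standard error 0.17). mt-Ta, the alanine tRNA on the minus strand, was the tRNA gene whose genotypes did not overlap. Its level was 2.79, 2.91 and 2.69 CPM in WT and 4.08, 3.14 and 3.42 CPM in Lpcat3KOMac mice (log2 fold change 0.34, standard error 0.19).

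Of the 22 tRNA genes, 16 were tested, and their log2 fold changes were positive for 8 and negative for 8, with a median of 0.04. The change was smaller than its standard error for 13 of the 16. On the plus strand the log2 fold changes were 0.49 for mt-Tm (methionine), 0.26 for mt-Tl2 (leucine), 0.23 for mt-Tv (valine), -0.02 for mt-Th (histidine), -0.13 for mt-Tw (tryptophan), -0.17 for mt-Ts2 (serine), -0.26 for mt-Ti (isoleucine) and -0.36 for mt-Tt (threonine). On the minus strand they were 0.26 for mt-Ty (tyrosine), 0.18 for mt-Tq (glutamine), -0.03 for mt-Tn and -0.16 for mt-Tc (cysteine). None was detectably different at this depth, with standard errors from 0.17 to 0.57 over the 16 genes. The 6 genes not tested were the 5 of the copied block and mt-Tf (phenylalanine), which had between 6 and 14 counts.

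**Figure D4:**
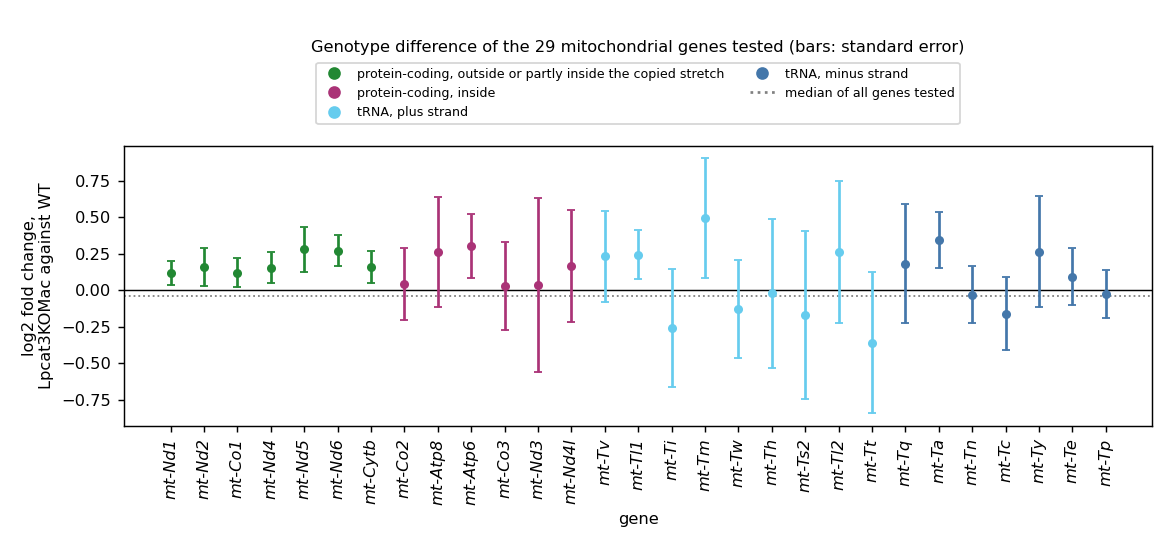
Log2 fold change of Lpcat3KOMac against WT for the 29 mitochondrial genes tested, with standard errors derived from the edgeR test. The dotted line is the median of all genes tested (-0.04). The 7 well-counted protein-coding genes lie between 0.12 and 0.28, and the tRNA genes spread from -0.36 to 0.49 with wide errors.

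The nuclear genes that maintain and express the mitochondrial genome were set beside its transcripts. All 47 listed genes were tested and 0 passed 0.05, whether p was adjusted or not. Their log2 fold changes were positive for 14 and negative for 33, between -0.34 and 0.26, with a median of -0.03, near that of all genes (-0.04). Without WT mouse 1, 29 were positive and 18 negative (median 0.050), and with total counts alone 35 were positive (median 0.058), so they had no stable direction. Tfam, which packs and transcribes mitochondrial DNA, was at 35.05, 27.09 and 27.58 CPM in WT and at 26.9, 32.7 and 27.4 CPM in Lpcat3KOMac mice (log2 fold change -0.04, standard error 0.14). Polrmt, the mitochondrial RNA polymerase, was at 21.5, 19.5 and 18.5 CPM in WT and at 19.9, 20.7 and 19.4 CPM in Lpcat3KOMac mice (log2 fold change 0.01, standard error 0.10). The genotypes overlapped for both.

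Lrpprc and Slirp form a complex that stabilizes the mitochondrial mRNAs. The log2 fold changes were -0.03 for Lrpprc (standard error 0.24) and -0.14 for Slirp (standard error 0.11). Mtpap, which adds the poly(A) tails, had 0.01 (standard error 0.09), at levels between 22.2 and 25.1 CPM in all 6 libraries. By role, the median was -0.06 for the 11 genes of replication and the nucleoid, -0.07 for the 8 of transcription, -0.02 for the 22 of RNA processing and turnover, and 0.00 for the 6 nuclear regulators.

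The respiratory chain complexes join mitochondrial and nuclear subunits. The 26 nuclear core subunits all had negative log2 fold changes, between -0.29 and -0.07 with a median of -0.19, but 0 had an adjusted p under 0.05. Of all 16134 genes, 9668 (59.9%) were negative. Without WT mouse 1, the library with the most hepatocyte transcripts, the direction was not kept. There 14 of the 26 were positive and 12 negative, with a median of 0.015. With the mean level of hepatocyte transcripts as a covariate, all 26 stayed negative, with a median of -0.23. Total counts alone gave 7 positive, leaving out Lpcat3KOMac mouse 1 gave 4, and leaving out Lpcat3KOMac mouse 3 gave 5. The part of hepatocyte RNA in the direction was not tested further. Their share of all counts was 0.444, 0.328 and 0.338% in WT and 0.339, 0.399 and 0.338% in Lpcat3KOMac mice, highest in WT mouse 1 and in Lpcat3KOMac mouse 2. An unadjusted p under 0.05 was found for 1, Cox5a of complex IV, at 184, 190 and 194 CPM in WT and at 155, 152 and 177 CPM in Lpcat3KOMac mice (log2 fold change -0.23, standard error 0.09). Cox5a and Ndufs8 of complex I were lower in every Lpcat3KOMac mouse, 2 of 26 genes beside 5.2% of all genes. The median was -0.12 for the 7 subunits of complex I, -0.11 for the 4 of complex III, -0.24 for the 10 of complex IV and -0.11 for the 5 of the ATP synthase.

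Per 100 counts on these 26 genes, the 7 well-counted mitochondrial genes had 454, 627 and 593 counts in WT and 757, 554 and 728 counts in Lpcat3KOMac mice. WT mouse 1 and Lpcat3KOMac mouse 2, which had the most hepatocyte transcripts, were lowest in their groups. The means were 558 ± 91.6 and 680 ± 109 (SD, n = 3 each), and the two-sided exact permutation test gave p = 0.3. This ratio does not depend on library scaling, and its genotypes overlapped.

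**Figure D5:**
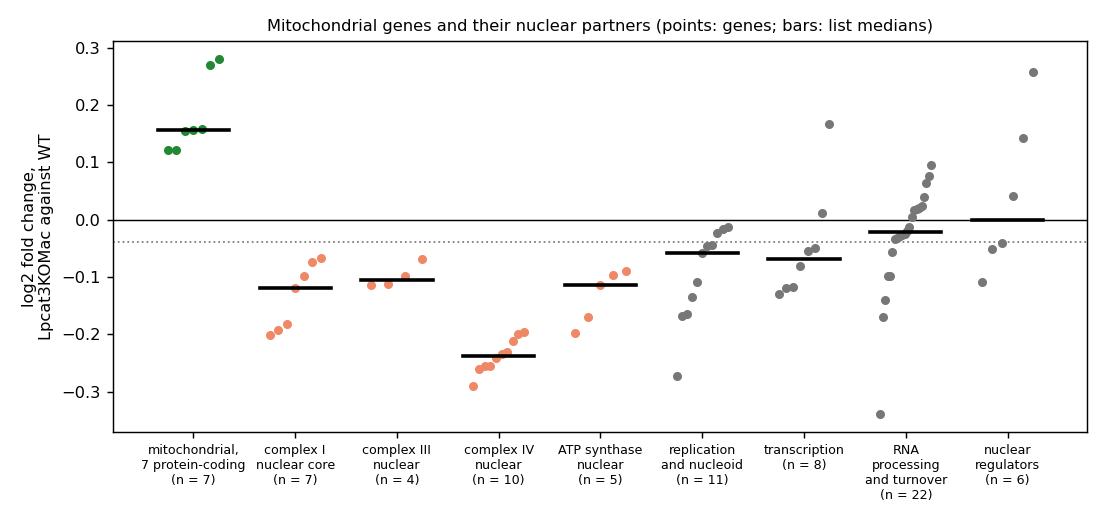
Log2 fold changes of Lpcat3KOMac against WT for the 7 well-counted mitochondrial genes (green), the nuclear core subunits of the respiratory chain (orange) and the nuclear genes for mitochondrial DNA maintenance and expression (grey), with 1 point per gene and a bar at each median; the dotted line is the median of all genes tested. The mitochondrial genes lie between 0.12 and 0.28 and the nuclear subunits between -0.29 and -0.07, and no gene shown passed the test after adjustment; without WT mouse 1 the median of the nuclear subunits was 0.015.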

How the data were processed

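RNA of liver F4/80-positive cells was sequenced from 3 WT and 3 Lpcat3KOMac mice, after poly(A) selection with a kit that does not mark strand. The authors deposited read counts per gene, not normalized. The submitters' processing notes name Trimmomatic 0.36, STAR 2.5.2b, featureCounts, Subread 1.5.2 and GRCm38. The strand setting and the rule for reads with several matches are not given in the sources used here. Groups came from the sample labels. Counts were compared with edgeR 4.0.16 (TMM, minimum count 10, robust quasi-likelihood test, genotype as only term, Benjamini-Hochberg adjustment over 16134 genes, threshold 0.05) in R 4.3.3. DESeq2 1.42.0, limma-voom (limma 3.58.1), other scalings and filters, a hepatocyte covariate, a replicate block and leaving out each mouse were alternatives. A length offset, TMM-scaled shares and leaving out the copied genes were added after the data had been seen. Shares were compared with two-sided exact permutation tests. Gene positions, sequences and copies came from GENCODE M21, with copies found by alignment of the transcripts. Scripts were tested on simulated data. All mitochondrial genes were named, and the members and gene lists were chosen with earlier results of these data known. Between libraries, chi-square per degree of freedom was at least 40.7, above sampling noise for every pair. Counts of 3 or fewer were taken as the floor of detection.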

Additional observations from a re-analysis of the deposited data

How the results depend on the processing

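The number of mitochondrial genes called was 0 in every fit run. Over all genes it was 0 in edgeR and limma-voom, with 426 genes at an unadjusted p under 0.05 in edgeR, and 15 in DESeq2. The median log2 fold change of all 13 protein-coding genes was 0.16, 0.26 with total counts alone, and 0.11 to 0.25 when single mice were left out. The difference in the share of all mitochondrial genes was 0.387 percentage points, 0.310 to 0.488 when single mice were left out, and 0.236 after TMM scaling. Deviations of same-numbered mice from their group means had correlations of -0.39, -0.70 and 0.41, which differ in sign. With group means over 3 mice, these cannot tell whether mice were paired. The numbers were not taken as pairs because the labels do not say so. With the replicate block the median was 0.15, with 0 genes called and 138 at an unadjusted p under 0.05. Of 461 values of single genes under alternatives, 425 kept their direction and 36 turned, 27 of them with a mouse left out, and none was of the 7 well-counted genes. The direction turned with total counts alone for mt-Tn (0.076), mt-Th (0.054) and mt-Tp (0.078). It turned with limma-voom for mt-Nd3 (-0.026) and mt-Th (0.020), and with the hepatocyte covariate for mt-Co3 (-0.030), mt-Nd3 (-0.0016), mt-Th (0.29) and mt-Ts2 (0.082). With each mouse left out, the log2 fold changes that turned spanned -0.16 to 0.13 for mt-Tn, -0.31 to 0.071 for mt-Tc, -0.15 to 0.10 for mt-Tp, -0.10 to 0.46 for mt-Tq, -0.038 to 0.20 for mt-Co2, -0.58 to 0.36 for mt-Nd3, -0.34 to 0.29 for mt-Th, -0.33 to 0.16 for mt-Tw, -0.16 to 0.22 for mt-Co3, -0.43 to 0.49 for mt-Ts2, -0.070 to 0.22 for mt-Te, -0.023 to 0.47 for mt-Atp8, -0.19 to 0.43 for mt-Nd4l, -0.50 to 0.039 for mt-Ti, -0.11 to 0.70 for mt-Tl2, -0.076 to 0.050 for the mtDNA maintenance and expression genes and -0.26 to 0.015 for the respiratory chain. The causes were not tested. With at least 10 counts in every library, 12 of the 13 protein-coding genes were tested. The planned share of the rRNA genes and their ratio to the protein-coding genes were not run. The median of the nuclear core subunits was -0.19, and -0.26 to 0.015 when single mice were left out (0.015 without WT mouse 1). That of the genes for mitochondrial DNA maintenance and expression was -0.03, 0.058 with total counts alone, and -0.076 to 0.050 when single mice were left out, positive without WT mouse 1 and without Lpcat3KOMac mouse 1 or 3. Fits of these lists under the alternatives were added after the data had been seen. The low counts of the copied block and of most tRNA genes left standard errors too wide to tell a difference.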
